A study of Mus musculus with 14 samples.

Results

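The genes of the proteasome were examined for histone H3 lysine 4 trimethylation (H3K4me3) at their starts in mouse hematopoietic stem and progenitor cells. They were taken as the protein-coding genes whose symbol is Psma to Psmg followed by a number and at most 1 letter, which gave 49 genes of the 21436 protein-coding genes with a usable start. The proteasome degrades proteins tagged with ubiquitin. Its barrel-shaped core particle is built of alpha (Psma) and beta (Psmb) subunits, and the beta subunits hold the protein-cutting sites. The regulatory particle caps the core, and its ATPases (Psmc) unfold substrates while its other subunits (Psmd) bind and remove ubiquitin. In the immunoproteasome the catalytic core subunits are replaced by Psmb8, Psmb9 and Psmb10, which interferon induces and which favor peptides for antigen presentation. H3K4me3 marks the promoters of genes that are active or poised.

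The 7 lists of peaks, 1 for each library of CUT&Tag (an assay that cuts and tags DNA beside an antibody-bound mark), comprised 3 from LSK cells of C57BL/6J male mice on a high-fat diet (HFD-LSK) and 4 from mice on a low-fat diet (LFD-LSK). The diets gave 60% and 10% of calories as fat and were begun at 3 to 4 weeks of age for 16 to 20 weeks. LSK cells are the lineage-negative, Sca1+ cKit+ cells of the bone marrow, a mix of stem cells and early progenitors, and 10000 were used for each library. Whether each library came from its own animal or from pooled animals was not stated, so the p-values below measure the spread between libraries only. The IgG control libraries were not analysed here. The paper defined its peaks against matched IgG controls, but whether the background of these lists came from them was not established here.

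The lists held 6921 to 13094 peaks, and the lowest number of fragments at the summit of a called peak ranged from 4 to 21 between libraries. The longest and the shortest list were those of HFD-LSK replicate 2 and LFD-LSK replicate 4. A start was counted as called where a peak overlapped the 1 kb on either side of it. Peaks were ranked within each list by fold enrichment over background, and a rank is given as a percent of the list, so that 0% is the top. Of the LSK markers, Kit, Cd34, Gata2 and Meis1 were called in all 7 lists and Flt3 in 6, while Ly6a, which encodes the Sca1 used in the sort, was called in none. Of the markers of cells that the sort should remove, Cd3e, Itgam and Ly6g were called in no list.

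Most proteasome genes carried a called peak. Of the 49 genes, 44 were called in at least 1 list and 23 in all 7, while 53.9% and 21.8% of all protein-coding genes were. All 7 lists thus held 23 of the 44 genes with any call, and 40.4% of the protein-coding genes with any call. The number called per list ran from 31 in LFD-LSK replicate 4 and 34 in LFD-LSK replicate 1 to 44 in HFD-LSK replicate 2, following the order of list size only in part. The core genes were called in all 7 lists in 8 of 16 cases, the immunoproteasome genes in 3 of 3, the regulatory genes in 11 of 23 and the assembly genes in 1 of 7. In 262 of the 266 calls the window held a single peak.

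**Figure D1:**
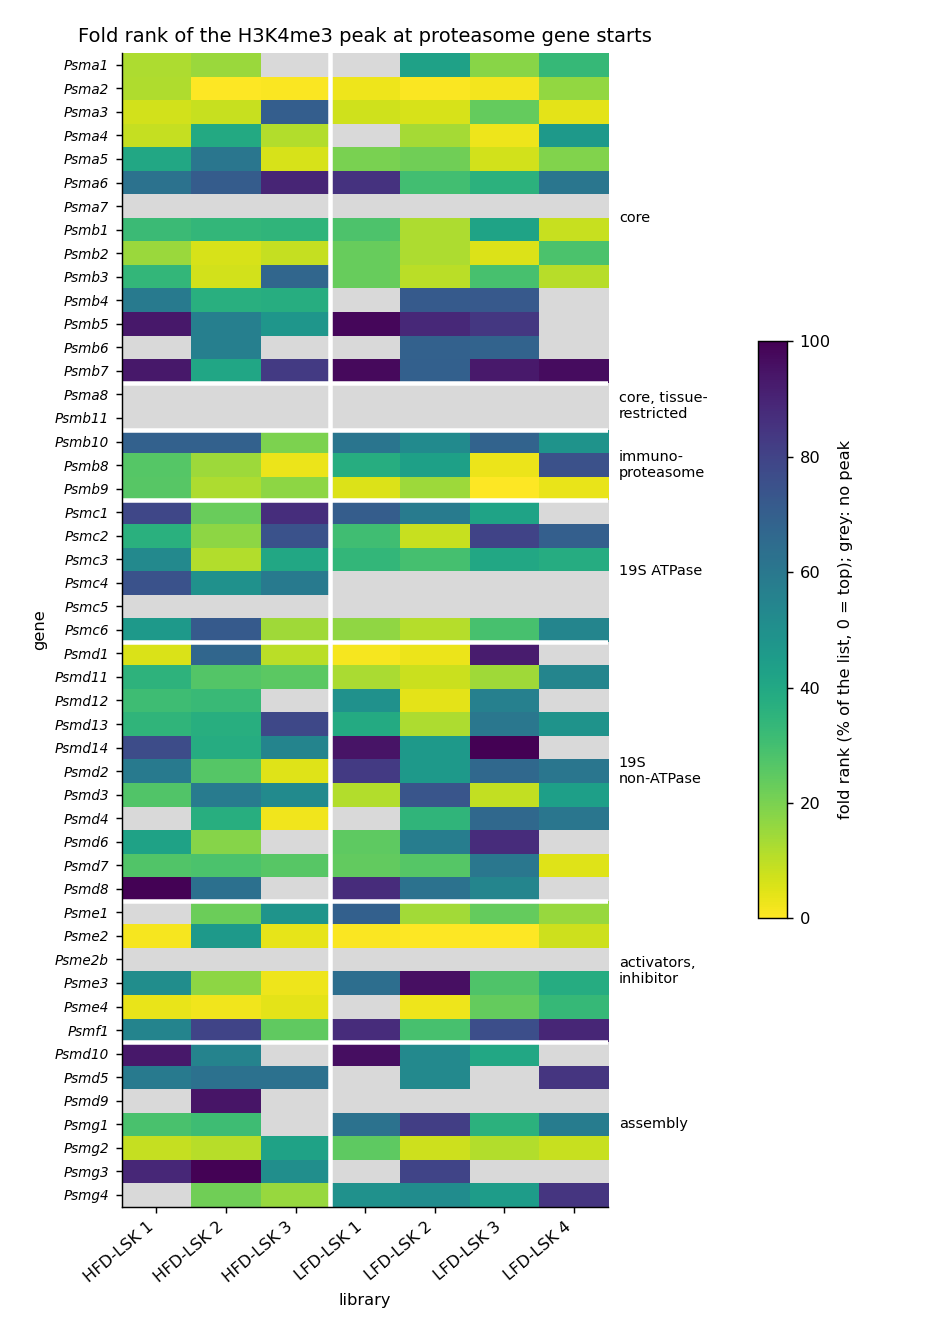
Fold rank of the H3K4me3 peak at each of the 49 proteasome genes (rows, by subunit class) in the 7 lists (columns), as a percent of the list from 0 at the top (yellow) to 100 (dark), with grey where no peak was called. Psma7, Psmc5, Psma8, Psmb11 and Psme2b are grey in all 7 lists, and Psmc4 is grey in all 4 LFD-LSK lists.

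The 5 genes without a call in any list were the tissue-restricted Psma8 and Psmb11, Psme2b, and the constitutive Psma7 and Psmc5. Psma8 is the alpha subunit of the testis, Psmb11 the beta subunit of the thymus cortex, and Psme2b a near-copy of Psme2 that may share reads with it. Their promoters (250 bases before to 50 after the start) were poor in CpG for Psmb11 and Psme2b, with an observed to expected CpG ratio of 0.165 and 0.0904, while Psma8 had no promoter entry. The median ratio was 0.822 for protein-coding genes called in all 7 lists and 0.218 for those called in none.

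Psma7 and Psmc5 are different: they encode a constitutive alpha subunit and a constitutive ATPase of the regulatory particle, and their promoters had CpG ratios of 0.928 and 0.837, in the range of called genes. The nearest peak to the Psma7 start (GRCm38 chromosome 2, position 180042464) lay 16503 to 16931 bp away, depending on the list. The nearest peak to the Psmc5 start (chromosome 11, position 106256185) lay 38245 to 38970 bp away. Each shares its promoter with an oppositely oriented gene, Ss18l1 starting at -19 bp from Psma7 and Ftsj3 at -101 bp from Psmc5 (negative positions are upstream). These partners were not called either. Within 30 kb of Psmc5, none of 3 other protein-coding genes was called in any list, and within 30 kb of Psma7 only Lsm14b of 3 was called. Why no list held a peak at these starts was not tested, and a missing call does not show that the mark is absent. The stretch between the Psmc5 and Ftsj3 starts is shown because it carries a promoter motif, GCATGCGC of nuclear respiratory factor 1 (capitals, either strand), at a start where no list held a peak. It is RefSeq sequence at chr11:106256085-106256184 of GRCm38.p6, plus strand.
Psmc5: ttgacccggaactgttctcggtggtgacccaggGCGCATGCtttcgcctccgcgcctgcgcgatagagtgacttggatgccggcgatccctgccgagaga

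Another 21 genes were called in some lists only. Of these, 8 were missing from 2 lists and 9 from a single list. Among the 21, the peak was missing most often in LFD-LSK replicate 4 (13 genes), LFD-LSK replicate 1 (10) and HFD-LSK replicate 3 (8). No gene was missing in HFD-LSK replicate 2. For all 6886 partly called protein-coding genes the share missing was 72.6%, 59.5% and 26.1% in the first 3 of these lists, against 61.9%, 47.6% and 38.1% for the proteasome genes.

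Of the partly called core genes, Psmb6, the constitutive caspase-like subunit that Psmb9 replaces, had a peak in 3 lists only, at 56.9% in HFD-LSK replicate 2, 69.1% in LFD-LSK replicate 2 and 68.2% in LFD-LSK replicate 3. Psmb5, the constitutive chymotrypsin-like subunit that Psmb8 replaces, was at 93.4%, 56.9% and 47.4% in HFD-LSK replicates 1 to 3 and 98.4%, 88.3% and 83.8% in LFD-LSK replicates 1 to 3. Psmb4 was at 58.6%, 37.0% and 37.8% in the HFD-LSK lists and at 71.7% and 72.0% in LFD-LSK replicates 2 and 3. Psmb5 and Psmb6 were thus below the middle of every list that held them except, for Psmb5, that of HFD-LSK replicate 3. The partly called alpha subunits stood higher. Psma1 was at 12.3% and 15.1% in HFD-LSK replicates 1 and 2 and at 42.7%, 17.7% and 33.0% in LFD-LSK replicates 2 to 4. Psma4 was at 8.64%, 39.3% and 11.5% in the HFD-LSK lists and at 13.3%, 2.73% and 45.9% in LFD-LSK replicates 2 to 4.

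Of the regulatory ATPases, Psmc4 was called in the 3 HFD-LSK lists only and is described with the diets. Psmc1 was at 78.6%, 22.8% and 87.0% in the HFD-LSK lists and at 70.4%, 58.4% and 41.9% in LFD-LSK replicates 1 to 3. Among the other subunits of the regulatory particle, Psmd1, a large scaffold subunit, was at 5.50%, 67.1% and 10.19% in the HFD-LSK lists and at 1.43%, 3.06% and 92.3% in LFD-LSK replicates 1 to 3. Its fold rank thus spanned nearly the whole list. Ranked by the fragments at the summit, it was at 7.23%, 4.00% and 0.271% and at 1.93%, 5.96% and 33.9% in the same lists. Psmd14, which cleaves ubiquitin from the substrate, was at 76.7%, 38.1% and 54.8% in the HFD-LSK lists and at 94.6%, 45.7% and 100% in LFD-LSK replicates 1 to 3. Psmd4, a ubiquitin receptor, was at 37.3% and 1.95% in HFD-LSK replicates 2 and 3 and at 34.7%, 66.3% and 60.7% in LFD-LSK replicates 2 to 4.

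Psmd6, Psmd8 and Psmd12 were each missing from HFD-LSK replicate 3 and LFD-LSK replicate 4. Psmd6 was at 42.5% and 18% in HFD-LSK replicates 1 and 2 and at 24.8%, 57.7% and 87.3% in LFD-LSK replicates 1 to 3. Psmd8 was at 99.2% and 63.2%, and at 87.3%, 62.2% and 54.4%, in the same lists. Psmd12 was at 31.2% and 32.3%, and at 49.5%, 4.15% and 56.3%. All 3 are structural subunits of the regulatory particle. Psme4, a large activator that binds the core without ubiquitin, was at 3.20%, 2.02% and 4.10% in the HFD-LSK lists and at 2.72%, 23.8% and 33.0% in LFD-LSK replicates 2 to 4. Psme1, the partner of Psme2 in the interferon-induced activator of the core, was at 22.4% and 48.3% in HFD-LSK replicates 2 and 3 and at 69.2%, 14%, 23.8% and 15.4% in the LFD-LSK lists.

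The assembly genes encode chaperones that build the core (Psmg1 to Psmg4) or the base of the regulatory particle (Psmd5, Psmd9 and Psmd10) and leave the finished particle. Of the 7, 6 were partly called. Psmd9 had a peak only in HFD-LSK replicate 2, at 94.5% of the list, 419 bp wide and with 22 fragments at its summit. Psmg3 was at 88.8%, 99.5% and 50.6% in the HFD-LSK lists and at 79.6% in LFD-LSK replicate 2. Psmd5 was at 58.6%, 62.8% and 62.5% in the HFD-LSK lists and at 52.8% and 84.7% in LFD-LSK replicates 2 and 4. These 3 genes lay below the middle of every list that held them. Psmd10 was at 93.4% and 55.4% in HFD-LSK replicates 1 and 2 and at 96.1%, 52.8% and 40.2% in LFD-LSK replicates 1 to 3. Psmg1 was at 28.7% and 31.2% in HFD-LSK replicates 1 and 2 and at 62.4%, 81.6%, 35.8% and 57.9% in the LFD-LSK lists. Psmg4 was at 21.9% and 15.6% in HFD-LSK replicates 2 and 3 and at 49.5%, 51.5%, 44.7% and 84.7% in the LFD-LSK lists.

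Across classes, the median of the genes' mean rank was 25.8% for the core, 29% for the immunoproteasome, 40.2% for the regulatory genes and 64.3% for the assembly genes, over those with a peak, and 49.1% for all protein-coding genes with a peak. The core median lay nearer the top than that of all genes in each of the 7 lists, at 21.7% to 37.8% against 39.6% to 44.7%. The assembly median lay farther from the top in 6 of 7 lists, with LFD-LSK replicate 3 at 38.0% as the exception. No test was run between classes, since the genes of a class are not replicates, and each class mixed high and low genes.

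**Figure D2:**
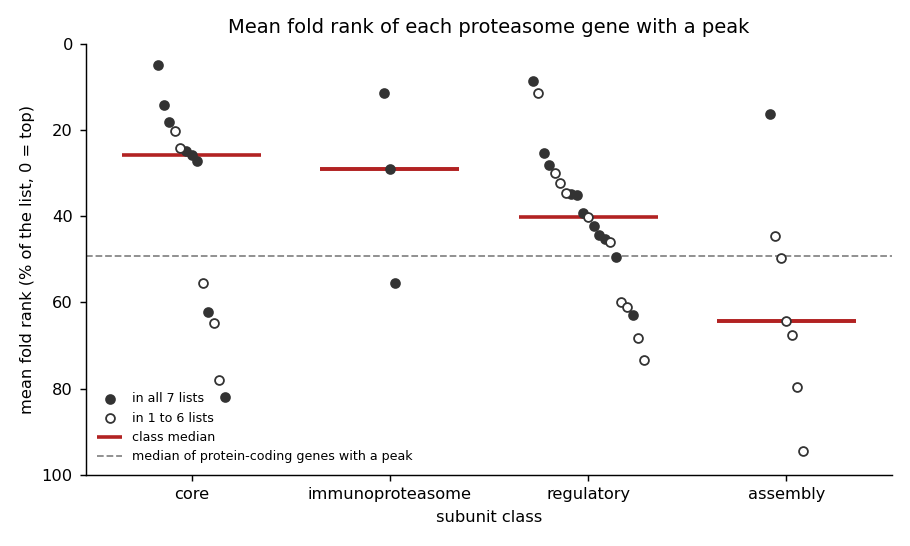
Mean fold rank of each proteasome gene with a peak, as a percent of the list with the top at 0, by subunit class. Filled points were called in all 7 lists and open points in 1 to 6, red lines are class medians (25.8%, 29%, 40.2% and 64.3%) and the dashed line is the median of all protein-coding genes with a peak (49.1%).

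Of the core genes called in all 7 lists, Psma2 stood nearest the top and Psmb7 farthest from it. Psma2, an alpha subunit, was at 12.1%, 0.111% and 0.764% in the HFD-LSK lists and at 2.42%, 0.416%, 1.76% and 16.1% in the LFD-LSK lists, with a mean of 4.80%. It was thus within the first 16.1% of every list. Psmb7, the constitutive trypsin-like subunit that Psmb10 replaces, was at 93.4%, 41.0% and 83.2% and at 97.3%, 69.3%, 93.1% and 96.5%, with a mean of 82.0%. By mean fold rank, the constitutive catalytic subunits Psmb5, Psmb6 and Psmb7 were the 3 core genes with a peak farthest from the top. They were at 78.0%, 64.8% (over 3 lists only) and 82.0%, and the alpha subunit Psma6 was close at 62.2%. Psmb1, Psmb2 and Psmb3, which hold no cutting site, were at 27.2%, 14.2% and 25.8%, and Psmb4, which holds none either, was at 55.4%. Ranked by the fragments at the summit, Psmb4 was farther from the top than Psmb6, at 70.6% against 68.8%.

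The 3 widest peaks of the family were at interferon-induced genes. Psme2, a subunit of the interferon-induced activator, had a mean width of 1971 bp, Psmb9 one of 1854 bp and Psmb8 one of 1462 bp, against a median of 786 bp over the proteasome genes with a peak and 889 bp over all such protein-coding genes. Psme2 was 1861, 2294 and 1673 bp wide in the HFD-LSK lists and 1883, 2178, 2015 and 1896 bp wide in the LFD-LSK lists. Psmb9 was 1532, 2531 and 2150 bp wide and 1181, 2051, 2100 and 1432 bp wide. Psmb8 was 1218, 2698 and 1518 bp wide and 1068, 1642, 1866 and 227 bp wide. The width of Psme2 thus changed little between libraries, while that of Psmb8 fell to 227 bp in LFD-LSK replicate 4. Psmb10 had a mean width of 1275 bp, from 558 bp in HFD-LSK replicate 3 to 1698 bp in LFD-LSK replicate 2. It was narrower on average than Psmb3, at 1311 bp, and Psme1, interferon-induced as well, was 397 to 1013 bp wide.

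By rank, Psme2 was at 1.42%, 46.3% and 3.69% in the HFD-LSK lists and at 0.423%, 0.0473%, 0.164% and 7.63% in the LFD-LSK lists. Psmb8 was at 26.3%, 14.5% and 3.00% and at 37.9%, 43.1%, 2.91% and 75.3%. Psmb10 was at 69.1%, 68.9% and 19.5% and at 61.3%, 52.1%, 68.2% and 48.8%. The immunoproteasome genes were therefore not alike: Psmb9 was at 11.3% on average, Psmb8 at 29% and Psmb10 at 55.4%.

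Fold is set by the local background as well as by the signal. Whether that background was taken from the IgG control libraries is not known here. The number of fragments at each summit and the local background that the peak caller used were recovered from the fold and the p-value, which was possible for 100% of peaks in every list. At Psme2 in HFD-LSK replicate 2 the summit held 138 fragments, the 8th highest of that list, where the local background was 26.6 times the background of the library, and the fold rank was 6069. In the other 6 libraries the local background at Psme2 was 0.998 to 14.7 times that of the library. At Psmb8 in LFD-LSK replicate 4 (227 bp wide, 75.3% by fold) it was 21.1 times. By summit fragments that peak was at 33.5%. Ranked by summit fragments, Psme2 was at 1.73% and Psmb9 at 1.11% on average. Psmb9 held 103, 119 and 49 fragments in the HFD-LSK libraries and 104, 88, 49 and 36 in the LFD-LSK libraries. Its fragment rank was 57.5, 60.5 and 3 and then 73.5, 30, 25.5 and 354. Psmb9 was thus within the first 5.11% of every list by fragments.

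**Figure D3:**
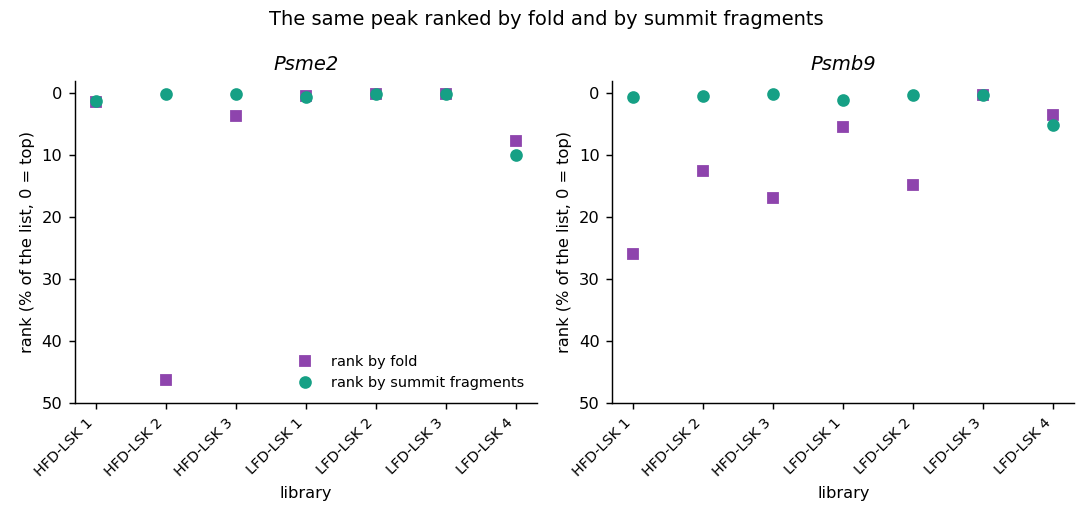
Rank of the Psme2 and Psmb9 peaks in the 7 libraries, as a percent of the list with the top at 0, by fold enrichment (squares) and by fragments at the summit (circles). By fragments both lie within 9.999% of the top in every library, while by fold Psme2 was at 46.3% in HFD-LSK replicate 2 and Psmb9 at 26.0% in HFD-LSK replicate 1.

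Of the regulatory genes called in all 7 lists, Psme2 stood nearest the top and Psmf1, the proteasome inhibitor, farthest from it. Psmf1 was at 55.0%, 79.4% and 24.4% in the HFD-LSK lists and at 87.3%, 29.1%, 76.1% and 89.1% in the LFD-LSK lists. The only assembly gene called in all 7 lists was Psmg2, at 8.64%, 10.8% and 42.5% and at 24.8%, 7.79%, 11.6% and 8.42%. Psmd7, a structural subunit of the regulatory particle, was at 24% to 28.3% in 5 of 7 lists, with LFD-LSK replicates 3 and 4 apart at 60.2% and 4.72%.

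Summits lay downstream of the start at most proteasome genes. The median position over lists was downstream at 35 of the 44 genes with a peak and upstream at 9, and its median over genes was 139.5 bp downstream, against 110.5 bp over all protein-coding genes with a peak. At Psmd7 the summit lay 236 to 242 bp downstream in all 7 lists. At Psmd1 it lay between 4 bp upstream and 3 bp downstream in 6 lists. At Psmb10 it ranged from 164 to 1023 bp downstream. Psmc2 has 2 starts 1472 bp apart, and its peak lay by the first in 6 lists and by the second in LFD-LSK replicate 3.

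The upstream summits went with shared promoters. Of the 49 genes, 10 (20.4%) had an oppositely oriented protein-coding start within 1 kb, as did 10.02% of all protein-coding genes. A peak was called at 8 of the 10, and at 7 of these 8 the median summit lay upstream of the start, against 2 of 36 for the other proteasome genes with a peak. Over all protein-coding genes with a peak, 62.9% with such a partner and 21.8% without had an upstream summit. The genes with a partner had a median mean rank of 18.3%, against 43.4% for those without. Over all protein-coding genes these medians were 32.7% and 52.6%. The 5 nearest the top were Psma2 with Mrpl32, which encodes a mitochondrial ribosomal protein and starts at -205 bp, Psme2 with Rnf31, a ubiquitin ligase subunit (-641 bp from the nearer of 2 Psme2 starts), Psmb9 with Tap1, a subunit of the peptide transporter of antigen presentation (-226 bp), Psmg2 with Cep76 (-232 bp), and Psma4 with AY074887, which starts 95 bp downstream and so overlaps it. A peak at such a start cannot be assigned to 1 of the 2 genes.

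**Figure D4:**
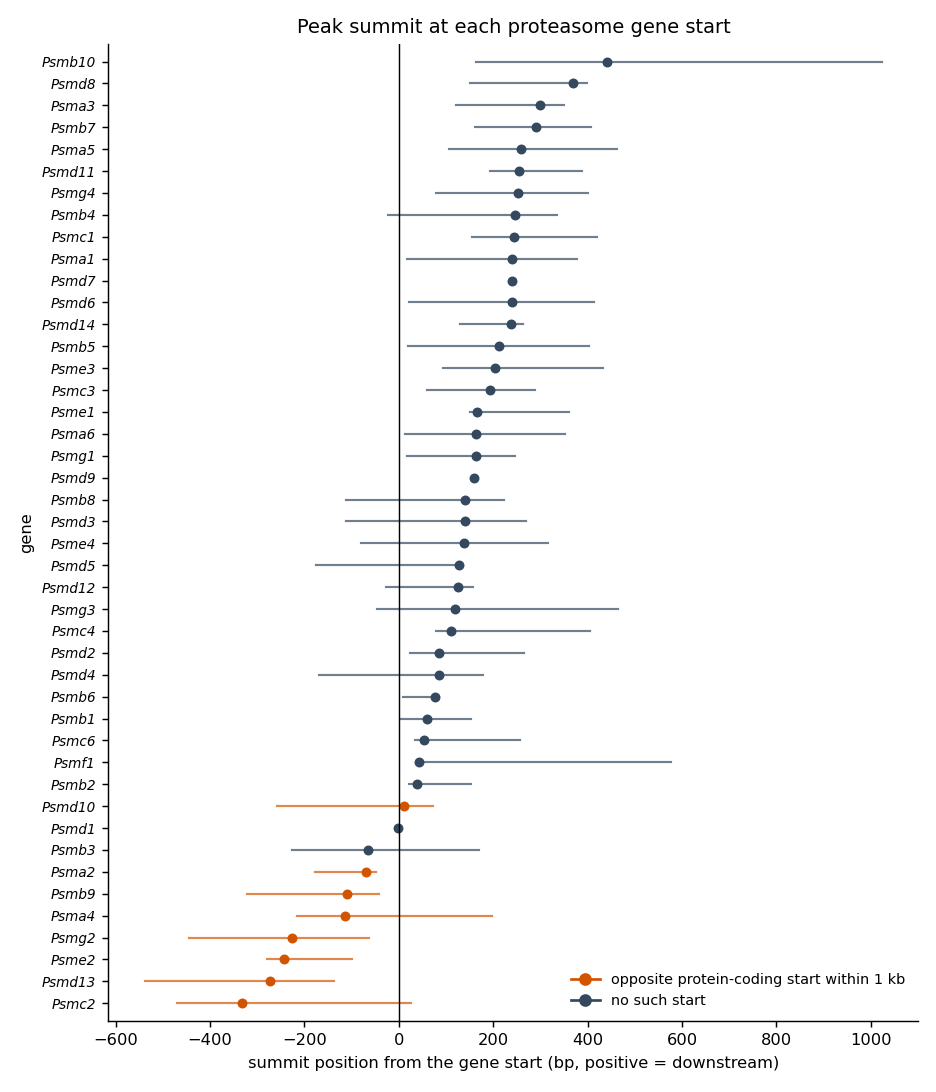
Position of the peak summit relative to the gene start, in bp with downstream positive, for the 44 proteasome genes with a peak. Points are medians over the lists that held the peak and lines run from the lowest to the highest position; genes with an oppositely oriented protein-coding start within 1 kb (orange) lie upstream in 7 of 8 cases.

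The stretches between the opposed starts of the top-ranked core gene and of the top-ranked immunoproteasome gene are shown, from RefSeq (GRCm38.p6). That of Psma2 and Mrpl32 lies at chr13:14613038-14613241 on the plus strand, with the nuclear respiratory factor 1 motif GCATGCGC, on either strand, in capitals. That of Psmb9 and Tap1 lies at chr17:34187331-34187555 on the minus strand, with GGGCGG (a GC box) and CCAAT, on either strand, in capitals.
Psma2: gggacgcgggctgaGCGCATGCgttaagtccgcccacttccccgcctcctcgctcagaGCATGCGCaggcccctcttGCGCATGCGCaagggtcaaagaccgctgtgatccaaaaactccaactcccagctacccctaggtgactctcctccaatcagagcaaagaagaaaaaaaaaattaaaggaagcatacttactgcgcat
Psmb9: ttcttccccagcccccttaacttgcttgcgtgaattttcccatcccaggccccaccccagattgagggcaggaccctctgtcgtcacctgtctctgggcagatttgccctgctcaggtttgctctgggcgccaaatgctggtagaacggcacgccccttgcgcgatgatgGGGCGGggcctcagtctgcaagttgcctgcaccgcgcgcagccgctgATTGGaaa
The Psma2 stretch held 26 bases within such matches, the last 10 of them from a pair of overlapping matches. GCATGCGC was in the promoter of 3 of 41 proteasome genes with a promoter entry (7.32%), namely Psma2, Psmc5 and Psmg1. The share was 3.93% of all protein-coding genes and 7.64% of those called in all 7 lists.

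Promoters were searched on both strands for 7 further motifs. CCGGAA, the core of sites for ETS factors, was in 20 of 41 promoters (48.8%), against 20.9% of all protein-coding genes and 36.0% of those called in all 7 lists. GGGCGG was in 23 (56.1%, against 49.2% of all protein-coding genes and 77.6% of those called in all 7 lists), CCAAT in 14 (34.1%, against 42.3% of either set) and TATAAA in 4 (9.76%, against 14.8% and 6.31%). GAAANNGAA, a core of interferon-stimulated elements, was in 7 (17.1%, against 9.43% and 7.31%), among them Psme1 but none of the immunoproteasome genes. TTCNNNGAA, a STAT site core that can share its last letters with GAAANNGAA, was in 3 (7.32%, against 8.92% and 7.69%), among them Psmb8. A match is a description of these 300-base windows only.

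TGACNNNGC is the core of the antioxidant response element to which the proteasome regulators Nfe2l1 and Nfe2l2 bind. It was in 6 of 41 promoters (14.6%), against 14.8% of all protein-coding genes and 17.7% of those called in all 7 lists. The matches are shown with their surroundings since the element is the best known one of proteasome genes. They are RefSeq sequence of GRCm38.p6 with the match in capitals, on either strand, at chr14:54618023-54618052 (minus strand, Psmb5), chr11:70525338-70525367 (plus, Psmb6), chr14:45329587-45329616 (plus, Psmc6), chr11:107479278-107479307 (plus, Psmd12), chr5:123228149-123228178 (plus, Psmd9) and chr11:30771758-30771787 (plus, Psme4).
Psmb5: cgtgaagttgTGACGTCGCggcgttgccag
Psmb6: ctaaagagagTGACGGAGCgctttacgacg
Psmc6: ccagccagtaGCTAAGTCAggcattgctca
Psmd12: tctGCTGTGTCAcatttgcccccctcagac
Psmd9: atctagccggTGACCCCGCccacttccaag
Psme4: cgctgcggctGCAGCGTCAccagaagagcc
Psmc6 was the only 1 of the 6 with a call in all 7 lists. Psmb5, Psmb6 and Psmd9 were among the weakest peaks described above, at 78.0%, 64.8% and 94.5% on average, while Psme4 was at 11.5%.

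The diets were compared gene by gene over libraries, by calls (Fisher's exact test, two-sided) and, for genes called in all 7 lists, by rank, width and summit position (two-sided exact permutation test over the 35 ways to pick 3 of 7 libraries). The smallest p that either test can give is 0.0286. With the p-values adjusted over all protein-coding genes tested (Benjamini-Hochberg), no gene passed 0.05 in any of the 4 measures, and 33, 179, 170 and 112 genes had an unadjusted p under 0.05 by calls, rank, width and summit. A lack of calls in a design of this size does not show that the diets were alike.

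By calls, Psmc4 was the only proteasome gene that separated the diets. Psmc4, an ATPase of the regulatory particle, had a peak in each of the 3 lists of the high-fat diet and in 0 of the 4 of the low-fat diet (Fisher's exact test, p = 0.0286, adjusted p = 1 over 11561 genes). With the same number of peaks taken from each list, the share of lists with a call differed by 0.667 between the diets (Fisher's exact test, p = 0.143). The pattern of 3 against 0 lists was found for 33 genes, 0.285% of those called in at least 1 list, and the reverse pattern for 0. Its HFD-LSK peaks were at 74.7%, 49.5% and 58.8% of the lists, with 29, 40 and 7 fragments at the summit and widths of 392, 526 and 538 bp. The fewest fragments at any called peak were 16, 8 and 4 in the HFD-LSK libraries and 21, 10, 8 and 9 in the LFD-LSK libraries. Depth is not known, so fragment counts are not on the same scale between libraries. The part of these lowest counts in the missing Psmc4 calls was not tested. Of the 21 partly called proteasome genes, 11 were called in a larger share of the HFD-LSK lists and 10 in a larger share of the LFD-LSK lists. Over the protein-coding genes called in at least 1 list, these shares were 49.5% and 10%, so that of the 6886 partly called genes 83.1% were called more often with the high-fat diet.

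By rank, Psmb9 was the only 1 of the 23 genes whose diets did not overlap. Its fold rank was 2391, 1634 and 2022.5 in the HFD-LSK lists and 399, 1564, 20 and 238.5 in the LFD-LSK lists, a mean of 2016 ± 379 (SD, n = 3) against 555 ± 690 (n = 4). The HFD-LSK mean was thus 1460 ranks lower down the list (exact permutation p = 0.0571, adjusted p = 0.812). A rank farther from the top in every HFD-LSK library was found for 4.32% of the 4675 genes tested, and 1 nearer the top for 1.39%. The separation did not hold for the rank as a percent of the list, at 26.0%, 12.5% and 16.9% against 5.36%, 14.8%, 0.193% and 3.45%. By summit fragments Psmb9 was nearer the top in HFD-LSK by a mean of 80.4 ranks (difference -80.4, exact permutation p = 0.657), and without LFD-LSK replicate 4 the means were 40.3 and 43 (difference -2.67). Ranked by −log10 p, the HFD-LSK mean of Psmb9 was 332 ranks lower down (exact permutation p = 0.714). The local background at its summit was 25.1, 8.86 and 28.4 times that of the library in HFD-LSK and 13.2, 18.6, 1.00 and 1.00 times in LFD-LSK, and its part in the fold rank was not tested. Over the 23 genes the mean fold rank was farther from the top in HFD-LSK at 19 and nearer at 4, while over all genes tested these shares were 64.7% and 35.3%. The HFD-LSK lists were the longer ones on average, and as a percent of the list the mean was farther from the top at 12 and nearer at 11, against 45.6% and 54.4% of all genes tested. By summit fragments it was farther from the top at 15 and nearer at 8, against 54.5% and 45.5% of all genes tested. By that rank the diets overlapped at all 23, while 3.72% of all genes tested were farther from the top and 2.01% nearer in every HFD-LSK library.

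By width, Psmb3 was the only 1 of the 23 whose diets did not overlap. Psmb3, a beta subunit without a cutting site, was 1381, 2000 and 1392 bp wide in the HFD-LSK lists and 1179, 1324, 1352 and 551 bp wide in the LFD-LSK lists. It was wider in HFD-LSK by 490 bp (1591 ± 354 bp against 1102 ± 375 bp, SD, exact permutation p = 0.0857, adjusted p = 0.722). Without HFD-LSK replicate 2 the difference was 285 bp (exact permutation p = 0.4), and with the same number of peaks from each list 0 of the proteasome genes were separated by width. A peak wider in every HFD-LSK library was found for 6.78% of the genes tested, and a narrower 1 for 0%. The mean width was larger in HFD-LSK at 19 of the 23 proteasome genes and smaller at 4, against 92.6% and 7.42% of all genes tested. The HFD-LSK lists had 9186 to 13094 peaks and the LFD-LSK lists 6921 to 10572, and the part of depth in the widths was not tested.

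By summit position, Psmc3 was the only 1 of the 23 whose diets did not overlap. Psmc3, an ATPase of the regulatory particle, had its summit 159, 114 and 59 bp downstream of the start in the HFD-LSK lists and 289, 200, 201 and 194 bp downstream in the LFD-LSK lists. The HFD-LSK summits lay 110 bp further upstream on average (difference -110 bp, exact permutation p = 0.0286, adjusted p = 1). Such a shift was found for 1.97% of the genes tested, and the opposite for 2.18%. Over the 23 genes the mean summit was further downstream in HFD-LSK at 15 and further upstream at 8, against 52.6% and 47.3% of all genes tested. The peak itself was 620 to 1132 bp wide, so that each of these summits fell within it.

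**Figure D5:**
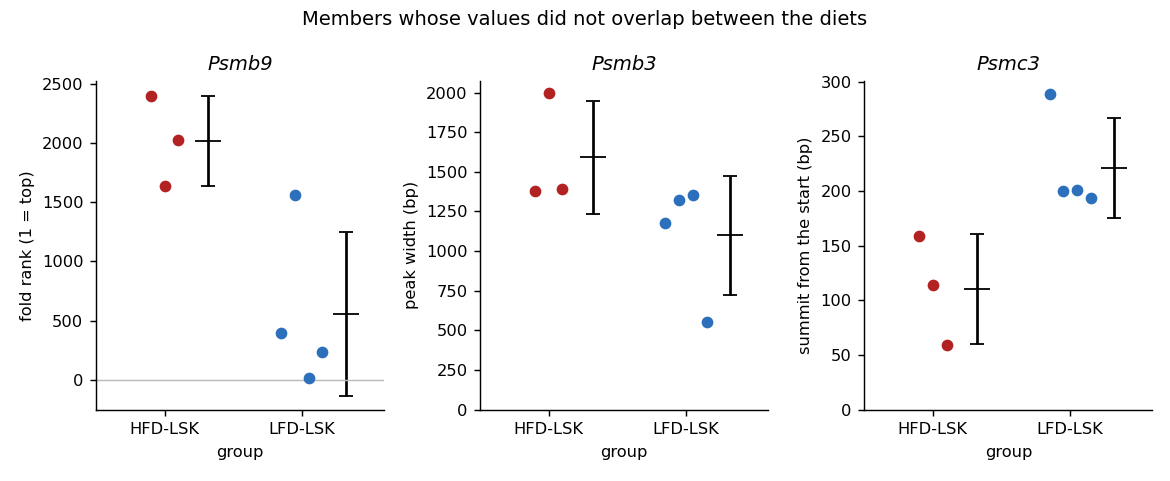
Values by library for the 3 proteasome genes whose HFD-LSK (red) and LFD-LSK (blue) values did not overlap: fold rank of Psmb9, peak width of Psmb3 in bp and summit position of Psmc3 in bp downstream of its start. Points are libraries and bars are the mean ± SD, and no gene passed the adjusted threshold.

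Other genes of the pathway, 26 in all, were called in at least 1 list throughout and in all 7 lists in 16 cases. They comprise subunits with other names, assembly and import factors, enzymes and shuttles that bind the proteasome, the factors that drive proteasome genes, and ubiquitin with its activating enzyme. Of these, 10 were not in all 7 lists, and each of the 10 was called in all 3 HFD-LSK lists. Of all partly called protein-coding genes, 50.4% were called in all 3 HFD-LSK lists, as were 10 of the 21 partly called proteasome genes. Adrm1, a ubiquitin receptor, was missing from LFD-LSK replicates 3 and 4, and Zfand2a from LFD-LSK replicates 1, 3 and 4. Sem1, a small subunit of the regulatory particle, and Usp14, a deubiquitinase, were missing from LFD-LSK replicate 3. Akirin2, Ubqln1, Ngly1, Ubb and Rps27a were missing from LFD-LSK replicate 4. Over the 16 genes in all 7 lists, the ranks of the diets overlapped at each gene. Nfe2l1, the transcription factor that raises proteasome genes when the proteasome is inhibited, is named for its width after its values were seen. Its peak was 1306, 1846 and 1635 bp wide in the HFD-LSK lists and 1132, 1161, 981 and 571 bp wide in the LFD-LSK lists (exact permutation p = 0.0286, adjusted p = 0.722). Of the 16 genes in all 7 lists, which were tested for width, it alone had widths that did not overlap, while 6.78% of all genes tested were wider in every HFD-LSK library. The widths of Akirin2 and Usp14, not tested since each was missing from 1 LFD-LSK list, did not overlap. They were 1488, 1951 and 1666 bp against 1189, 1442 and 1316 bp for Akirin2. For Usp14 they were 950, 1018 and 901 bp against 728, 812 and 514 bp. At Adrm1, Sem1, Ubqln1, Zfand2a, Ngly1, Ubb and Rps27a, partly called as well, the widths overlapped. The share over all partly called protein-coding genes is not given here, so Akirin2 and Usp14 are no result about the diets.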

How the data were processed

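The 3 HFD-LSK and 4 LFD-LSK libraries of H3K4me3 CUT&Tag were each represented by 1 peak list. The sample titles name the assay CUT&RUN, while the paper describes CUT&Tag, the name used here. Per the labels, the submitters' processing notes name Trim Galore, Bowtie2, Picard, MACS2, bedtools, HOMER and featureCounts and the build GRCm38; versions and settings were not given in the sources used here, and the study's methods name another workflow and build. The positions fell on GRCm38 starts. The deposited columns hold fold enrichment (a ratio), the −log10 p-value and −log10 q-value and a display score by the authors' peak caller. The smallest −log10 p was 5.01 to 5.08 by list. Peaks were called by library, with no pooling.

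Starts were those of the RefSeq promoter table (GRCm38.p6), or the outer end of the gene for the 8 proteasome genes without an entry, whose strand came from GENCODE by symbol. This choice of starts was made after seeing where the peaks lie. The strongest peak by fold overlapping 1 kb on either side was kept. Tied ranks were averaged. Paaf1 was not analysed here. The values of 2 markers and 1 pathway gene are not reported here, though all 3 stay in the counts of genes tested. Summit fragments were recovered as whole multiples within 0.02, assuming the peak caller's Poisson test. No peak list gives the total fragments, so depth is known only through list size and the fewest fragments at a called peak. Matching, tests and recovery were tested on simulated data. Python 3.11.15, pandas 2.3.3, numpy 2.4.6 and scipy 1.17.1 were used.

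Values are given by library for genes not in all 7 lists, the top and bottom gene of each class among those in all 7, the 3 widest, those whose diets did not overlap, and the interferon-induced genes. Genes and lists were chosen with earlier results of these data known. Alternatives were another window, the summit in the window, a −log10 q of at least 5, equal list lengths, other ranks and widths, leaving out each library and a replicate block. The gene's outer end as its start and the rank by fragments were added after seeing the data.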

Additional observations from a re-analysis of the deposited data

Results flagged for a closer look

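In 78 sets of 4 LFD-LSK values of proteasome genes, 11 had 1 library far from the other 3 (by the gap to the nearest other library over the range, Dixon's test). The threshold used flags about 1 in 20 sets of independent, normally distributed values, which ranks, widths and summits of the same libraries need not be. The share over all protein-coding genes is not given here, so the count is not a result about proteasome genes. By fold rank, LFD-LSK replicate 4 was at 1111.5 for Psma2 (the others 44 to 182.5) and at 528 for Psme2 (5 to 31.5), and replicate 3 was at 2462.5 for Psma3 (294.5 to 651). By width, replicate 1 was 316 bp at Psmc6 (638 to 677). By summit position, downstream positive, replicate 1 was at 289 bp for Psmc3 (194 to 201), replicate 2 at 388 bp for Psmd11 (253 to 257) and at 217 bp for Psmc6 (35 to 54), replicate 3 at 1023 bp for Psmb10 (415 to 503) and at 361 bp for Psme1 (152 to 175), and replicate 4 at 122 bp for Psma3 (299 to 304). No library accounted for all of them. The value of replicate 3 for Psmc2, 27 bp against -339 to -284, comes from another peak, by a second start 1472 bp away, and so is not on the same scale.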

How the results depend on the processing

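The class medians of rank moved by less than 1 SD of the class median over the 7 libraries under each of 15 settings. The order of the core and immunoproteasome medians was not stable. It reversed without LFD-LSK replicate 2 (28.4% against 26.7%) and without LFD-LSK replicate 4 (28.3% against 21.3%). A −log10 q of at least 5 reversed it as well (30.6% against 24.1%). Leaving out 1 library at a time, the proteasome genes called in all remaining lists numbered 23 to 27, and those called in every HFD-LSK list and no LFD-LSK list 1 to 2 (2 without LFD-LSK replicate 2). Those whose diets did not overlap numbered 1 to 5 by rank, 1 to 5 by width and 1 to 5 by summit, with 5 in each case without HFD-LSK replicate 1 and 5 by width without LFD-LSK replicate 2, and fewer libraries leave more room for this by construction. The differences ran from 1273 to 1797 ranks for Psmb9, from 285 to 594.5 bp for Psmb3 and from -134.5 to -84.5 bp for Psmc3, whose exact permutation p was then 0.0667 or 0.1, the smallest that these designs allow. With the same number of peaks (6921) from each list, 11 genes were in all lists, 0 did not overlap by width, and the share of lists calling Psmc4 differed by 0.667 between diets (Fisher's exact test, p = 0.143). By rank, 0 genes did not overlap for the rank as a percent of the list, 0 among starts called in all lists, 0 by summit fragments (Psmb9 difference -80.4) and 2 with missing calls imputed, and 2 did not overlap by width rank. Ranked by −log10 p, the Psmb9 difference was 332 ranks (exact permutation p = 0.714). The cause was not tested. Same-numbered libraries had correlations of 0.101, -0.0236 and 0.0261 over 4675 genes, and the other HFD-LSK and LFD-LSK pairs -0.145 to 0.0897. Such values cannot show whether the samples were paired. The paper states that its differential analysis took batch and pairing into account, and the labels used here name neither. With a replicate block, 9 of 23 genes moved the same way in all 3 pairs by rank (26.1% of all genes) and 10 by width (32.8%), where the smallest exact p is 0.25. Depth, known only through list size and the fewest fragments called, limits what a missing call can show.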
